A study of Rattus norvegicus with 65 samples.

Results

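The comparison of Roux-en-Y gastric bypass (RYGB) with weight-matched food restriction took in 18 of the 65 hypothalamus libraries of the series. These were the 11 libraries labelled as bypass and the 7 labelled BWM (body weight-matched) in batch A, the batch that holds every BWM animal, and all genes in the table were considered. All animals were male Wistar rats, 9 to 10 weeks old at the start and fed a high-fat diet for 6 weeks before the intervention. RYGB-treated animals received a small gastric pouch joined to the small bowel and afterwards chose freely between a high-fat and a low-fat diet. BWM animals had a sham operation and were then fed restricted amounts to keep them as light as the RYGB group. Tissue was collected 4 weeks after the intervention, after 10 h without food. The 5 sham-operated animals of batch A, which ate freely, are given as a reference level only and entered no test. Animals are called by their group and the replicate number of the labels, for example BWM 5.

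The comparison asks which transcripts differ between surgery and food restriction at a matched body weight. The match was not complete, since by the study's account the BWM group weighed more than the RYGB group late in the experiment, near the time of tissue collection. In the arcuate nucleus of the hypothalamus, neurons that make AgRP and NPY drive feeding and neurons that make POMC and CART reduce it. Both read circulating leptin, insulin and ghrelin and act on neurons of the paraventricular, ventromedial and lateral hypothalamus. Food restriction is known to raise the drive to eat through these neurons, whereas patients and rats with a bypass eat less at a low weight. The hypothalamus was taken as 1 block and its nuclei were not separated, so that fewer cells of a type and less RNA per cell cannot be told apart in any value below.

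Library totals ranged from 25912861 to 36539714 counts in RYGB-treated animals and from 26168268 to 32726395 in BWM animals. Several libraries stood apart by markers of neighbouring tissue. BWM 5 carried 78000 counts-per-million (CPM) in 15 anterior pituitary markers, the next highest animal, BWM 7, carried 1280 CPM, and RYGB-treated animals carried 3.8 to 546 CPM. BWM 1 carried 4250 CPM in 8 striatal markers where no other of the 18 animals passed 574 CPM, and it went partly against its tissue label. The hypothalamic transcription factors Otp and Sim1 and the melanocortin receptor Mc3r were at 0, and Hcrt, the orexin gene, was at 1.92 normalized counts. Other hypothalamic markers were present in BWM 1, with 8 of 9 arcuate and 4 of 5 lateral hypothalamus markers at 10 or more normalized counts. RYGB 6 was highest for cortical (1200 CPM) and choroid plexus (3370 CPM) markers. Meningeal markers were highest in RYGB 3 (4760 CPM) and BWM 7 (4600 CPM). RYGB 11 had the lowest level of long transcripts. Its median log2 level of genes with over 6000 exonic bases lay 0.24 below that of genes with under 2000. In the groups, the median of this difference was 0.71 above in RYGB-treated and 0.59 above in BWM animals. Results are therefore given with and without BWM 5, and where it matters without BWM 1, RYGB 6 and RYGB 11.

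**Figure D1:**
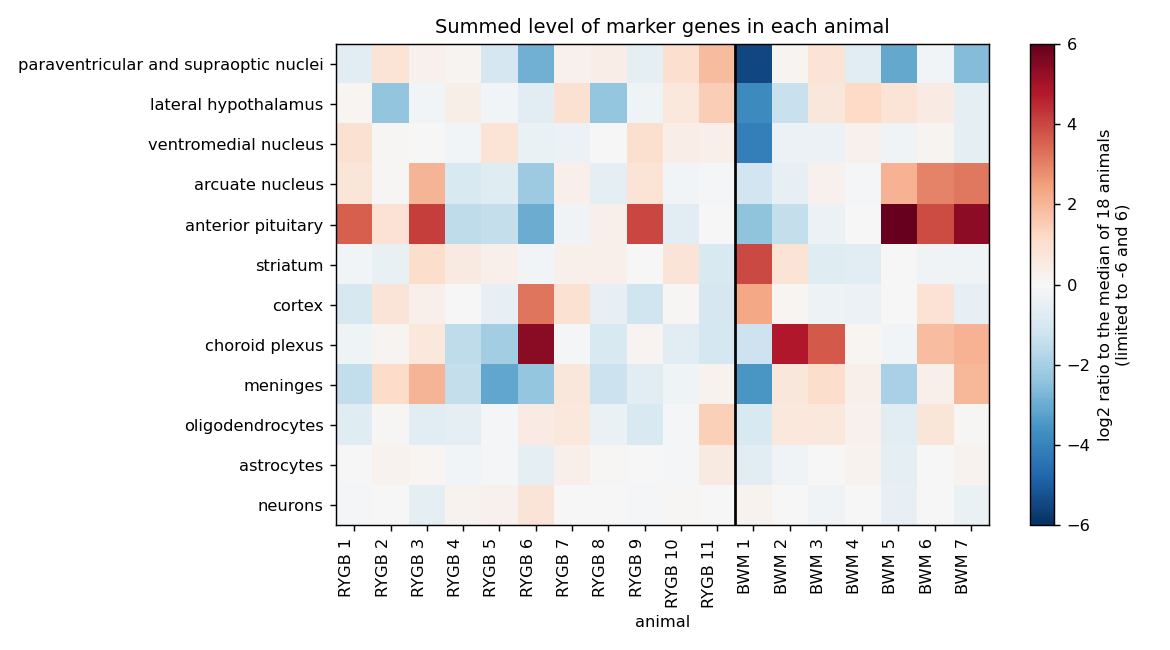
Summed level of marker genes in each animal (columns) for each marker list (rows), as the log2 ratio to the median of the 18 animals on a colour scale limited to -6 and 6. BWM 5 is highest for the anterior pituitary (78000 CPM), BWM 1 for the striatum (4250 CPM), and RYGB 6 for cortex (1200 CPM) and choroid plexus (3370 CPM).

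No gene passed the threshold for regulation between RYGB-treated and BWM animals. With edgeR's quasi-likelihood test on 18 libraries, 0 of 19923 genes tested (0%) reached a Benjamini-Hochberg adjusted p under 0.05 with an absolute log2 fold change over 1, and 0 reached the adjusted p at any fold. The smallest adjusted p was 0.835. At an unadjusted p under 0.05 stood 1041 genes (5.23%), of which 404 were higher (2.03%) and 637 lower (3.2%) in RYGB-treated animals. DESeq2 called 3 genes as regulated, all lower after RYGB (Gh1, Cdhr1 and RGD1563270), and 5 at any fold, with Prkd2 and Scly added.

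Without BWM 5 the counts by edgeR were again 0 of 20069 genes (0%) at either threshold, with a smallest adjusted p of 0.947. Unadjusted p-values under 0.05 then numbered 751 (3.74%), 383 higher (1.91%) and 368 lower (1.83%). DESeq2 called 1 gene, RGD1563270, which had 207 and 25.3 normalized counts in BWM 3 and BWM 4, 65.3 in RYGB 10 and 0 in the remaining animals. Without BWM 1, BWM 5 and RYGB 6, edgeR still called 0 genes, and 1495 (7.39%) were under an unadjusted p of 0.05. When RYGB 11 was left out as well, 5 genes passed the adjusted p at any fold and 0 were regulated. All 5 were higher after RYGB and among them were Slc8a2 and Atp2b1, which export calcium from the cell, Kalrn, a regulator of dendritic spines, and Syne1, a protein of the nuclear envelope. At an unadjusted p under 0.05 stood 4789 of 20174 genes tested. The 2581 that were higher after RYGB had a median of 4391 exonic bases and the 2208 lower ones 1191. The part of transcript length in these calls was not tested.

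The 95% interval of the log2 fold change lay within -1 and 1 for 15796 of 19923 genes (79.3%) with 18 libraries and for 15568 of 20069 (77.6%) with 17, so that for most genes the interval left out a change of more than 2-fold in either direction. The p-values set the difference between the groups against the spread between these animals.

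**Figure D2:**
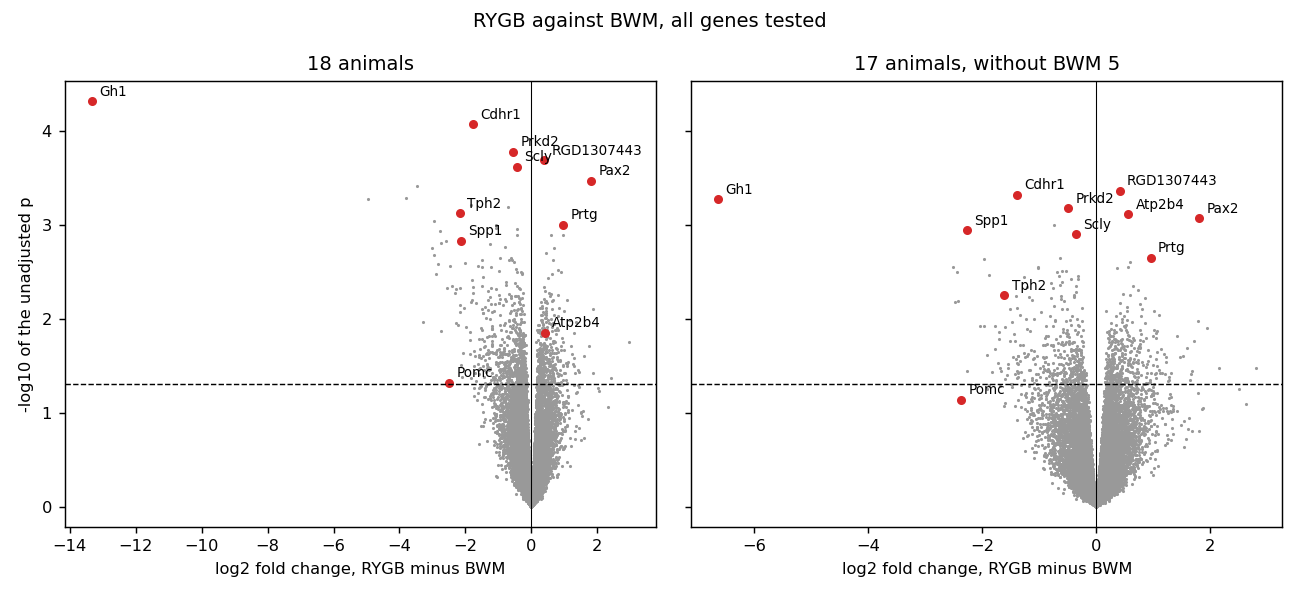
Log2 fold change (RYGB minus BWM) against the -log10 of the unadjusted p for all genes tested, with 18 libraries and with 17 (without BWM 5), on different horizontal axes. The dashed line marks an unadjusted p of 0.05. Gh1 lies at -13.34 with 18 libraries and at -6.63 with 17.

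The genes with the smallest p-values without BWM 5 are described by value, since none passed the adjusted test. Higher after RYGB were RGD1307443, Atp2b4, which encodes a calcium pump of the plasma membrane, Pax2, a developmental transcription factor, Prtg, a cell adhesion protein, and LOC103693202. Pax2 ranged from 8.12 to 35.5 normalized counts (median 18.7) in RYGB-treated animals and from 1.09 to 10.1 (median 5.44) in BWM animals. The lower RYGB-treated animals fell inside the range of the higher BWM animals, and sham animals covered both groups with 0 to 47.5. The log2 fold change of Pax2 was 1.82 (95% interval 0.86 to 2.77, edgeR adjusted p = 0.947). RGD1307443 ranged from 1371 to 2391 (median 1916) after RYGB and from 1194 to 1622 (median 1433) in BWM animals, a log2 fold change of 0.42 (0.21 to 0.62, edgeR adjusted p = 0.947).

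Lower after RYGB were Cdhr1, a cadherin of photoreceptors and olfactory bulb neurons, Gh1, growth hormone, Prkd2, a protein kinase, Serhl2, a predicted hydrolase, and Spp1, the secreted phosphoprotein osteopontin. Spp1 ranged from 123 to 790 normalized counts (median 289) after RYGB and from 181 to 6719 (median 504) in BWM animals. The high BWM values came from BWM 7 (6719) and BWM 6 (1639), and sham 3 stood at 6370. These 3 animals also had high Pomc (73778, 63698 and 32675), as did BWM 5 (35880) with Spp1 at 504, and the part of neighbouring tissue in Spp1 was not tested. The log2 fold change of Spp1 was -2.27 without BWM 5 (-3.50 to -1.03, edgeR adjusted p = 0.947). With 18 libraries it was -2.13, and leaving out BWM 7 alone moved it to -0.96.

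Only 1 of the 19923 genes (0.00502%) had groups that did not overlap, and it was also the only one of 20069 (0.00498%) without BWM 5. This was Scly, which lies on chromosome 9 from 98438408 to 98459075 on the plus strand (Rnor_6.0) and encodes selenocysteine lyase, the enzyme that recycles selenium from selenocysteine. It was picked out after its values were seen. RYGB-treated animals ranged from 283 to 378 normalized counts (median 330) and BWM animals from 380 to 553 (median 429). The highest RYGB-treated animal and the lowest BWM animal were nearly level. Sham animals ranged from 278 to 443 and overlapped both groups. The log2 fold change was -0.43 (-0.63 to -0.23, edgeR adjusted p = 0.88) and without BWM 5 -0.35 (-0.55 to -0.16, edgeR adjusted p = 0.947). Scly was among the 5 genes that DESeq2 called at any fold with 18 libraries (DESeq2 adjusted p = 0.0416), and it also passed at any fold in an edgeR fit of all 65 libraries (edgeR adjusted p = 0.00422). Neither called it without BWM 5.

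Gh1, Prl and Pou1f1 of the anterior pituitary were far higher in BWM 5 than in any other animal, which was not so for every pituitary hormone gene. Gh1, on chromosome 10 from 94486204 to 94488181 on the minus strand (Rnor_6.0), ranged from 0 to 170 normalized counts (median 3.61) after RYGB. In BWM animals it ranged from 0 to 1900504 with a median of 39.3, BWM 7 was second at 15495 and BWM 3 followed at 179. The other 4 BWM animals lay within the RYGB range, and 1 of the 5 sham animals reached 1430. Without BWM 5 the log2 fold change was -6.63 (-9.94 to -3.32, edgeR adjusted p = 0.947).

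Prl, which encodes prolactin, ranged from 0 to 20.9 after RYGB, and in BWM animals stood at 390482 in BWM 5, 3284 in BWM 7, 90.5 in BWM 3 and 10.9 or less in the other 4. Pou1f1, the transcription factor of the cells that make growth hormone, prolactin and thyrotropin, was at 5276 in BWM 5, 48.2 in BWM 7 and 10.5 or less in the remaining animals. Of these 3 genes only Prl had an entry in the promoter table used. Prl and Pou1f1 were both highest in BWM 5 and BWM 7, but BWM 3, with Prl at 90.5, had Pou1f1 at 0. A link between the 2 genes was not tested. The Prl promoter is shown because POU1F1 is known to bind it. It covers 250 bases before to 50 bases after the start on the minus strand of the RefSeq assembly GRCr8, chr17:38298168-38298467, a different build from that of the counts.
Prl: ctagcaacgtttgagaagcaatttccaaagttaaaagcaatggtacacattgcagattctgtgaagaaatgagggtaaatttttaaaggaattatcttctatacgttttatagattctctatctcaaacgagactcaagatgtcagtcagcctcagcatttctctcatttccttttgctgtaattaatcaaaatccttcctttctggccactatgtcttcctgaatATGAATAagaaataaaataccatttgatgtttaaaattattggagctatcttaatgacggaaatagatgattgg
The capitals mark the only match to ATGNATA, a POU1F1-type motif searched on both strands, which 3306 of 33469 promoters of that length (9.88%) also held, and a match is not evidence of binding.

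Tshb and Cga, the subunits of thyrotropin, divided both groups. Tshb was at 2571 to 2989 in RYGB 1, 3 and 9 and at 2874 to 4529 in BWM 5, 6 and 7, and at 179 or less in the remaining 12 animals. A pars tuberalis of the pituitary, which also makes thyrotropin, attaches to the base of the hypothalamus, and how much of it each block held was not tested. A list of olfactory nerve and bulb genes was written after the data were seen, and it holds Cdhr1, named above for its small p. Of the 6 tested, 2 were above 0. Doc2g, Eomes and Cdhr1 had an unadjusted p under 0.05 towards lower levels after RYGB (50% against 3.2% of all genes tested). The summed level of the list was 212 CPM in BWM 6, 158 CPM in BWM 7 and at most 145 CPM after RYGB. S100a5, a calcium-binding protein of olfactory neurons, was at 1769 in BWM 6, 124 in BWM 7, 36.9 in BWM 2 and 10.9 or less in the other 15 animals, and Omp, the olfactory marker protein, was at 272 and 88.0 in BWM 6 and 7 and at 7.94 or less in the others. Cdhr1 was at 1909 in BWM 5, 1068 in BWM 7, 979 in BWM 6 and 888 in BWM 1, against 168 to 350 after RYGB. The other 3 BWM animals stood at 176 to 380. The part of neighbouring tissue in these values was not tested.

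Of the 4 genes of food intake that the study named for this comparison, Tph2 reached a p under 0.05 in the permutation test and Ffar4, Ucn and Mrap did not. Lepr, which the study named for other comparisons, did not reach it either. The study had taken the 4 genes from those it called between RYGB and BWM animals of this series. Their permutation p-values are therefore descriptions and not independent support. Tph2 encodes tryptophan hydroxylase 2, the rate-limiting enzyme of serotonin synthesis in neurons, and lies on chromosome 7 from 58042279 to 58149220 on the minus strand (Rnor_6.0). It ranged from 6.72 to 39.0 normalized counts (median 19.5) after RYGB and from 11.1 to 261 (median 42.4) in BWM animals. BWM 5 (261), BWM 7 (194), BWM 6 (65.5) and BWM 2 (42.4) were above every RYGB-treated animal, and the other 3 were inside the RYGB range. The means were 19.6 ± 10.2 (SD, n = 11) and 88.7 ± 98.4 (SD, n = 7), with p = 0.00911 by a two-sided exact permutation test, and 60.0 ± 68.6 (SD, n = 6) with p = 0.0234 by the same exact test without BWM 5. The edgeR adjusted p over all genes was 0.88 and 0.947. In the fit of all 65 libraries of the series Tph2 was regulated (log2 fold change -2.21, edgeR adjusted p = 0.000643), and without BWM 5 that fit did not call it. Without BWM 5 and BWM 7 the difference in means shrank to -13.7 (exact permutation p = 0.107). Both animals were also the 2 highest for anterior pituitary markers, and sham animals stood at 20.9 to 69.2.

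Ffar4, the receptor for long-chain fatty acids, ranged from 0 to 18.1 normalized counts (median 3.90) after RYGB and from 0 to 245 (median 7.04) in BWM animals. Only BWM 5 was outside the RYGB range. The means of 5.03 ± 5.81 (SD, n = 11) and 40.1 ± 90.4 (SD, n = 7) gave p = 0.14 by the exact permutation test, and without BWM 5 the BWM mean was 6.03 ± 5.83 (SD, n = 6, exact permutation p = 0.736).

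Ucn, which encodes urocortin, a peptide related to corticotropin-releasing hormone, ranged from 0 to 16.6 (median 4.06) after RYGB and from 1.09 to 339 (median 4.36) in BWM animals, with BWM 7 alone above the RYGB range. Its exact permutation p was 0.30 with 18 libraries and 0.24 with 17. Mrap, which encodes a partner protein of melanocortin receptors, ranged from 0 to 15.5 (median 2.03) after RYGB and from 0 to 203 (median 2.17) in BWM animals. BWM 6 (203) and BWM 7 (27.8) were above the RYGB range, and the exact permutation p was 0.143 and, without BWM 5, 0.103. In Ffar4, Ucn and Mrap the high BWM mean came from 1 animal, a different one in each gene. None of the 3 had enough counts to pass the filter of the edgeR fit of these 18 libraries. In a fit of all 65 libraries, whose other groups also set the spread, Ffar4 (log2 fold change -3.09, edgeR adjusted p = 0.04) and Mrap (-3.22, edgeR adjusted p = 0.0469) passed the threshold and Ucn did not, and without BWM 5 none of the 3 passed.

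Lepr, the leptin receptor, ranged from 105 to 852 (median 205) after RYGB, from 94.8 to 1056 (median 149) in BWM animals and from 48.4 to 136 in sham animals. The group means of 283 ± 217 (SD, n = 11) and 313 ± 342 (SD, n = 7) gave an exact permutation p of 0.825, and 0.729 without BWM 5. The highest animals were BWM 7 and RYGB 3, which were also the highest for meningeal markers (4600 and 4760 CPM), and the part of the meninges in Lepr was not tested. The edgeR log2 fold change of -0.14 had a 95% interval of -1.17 to 0.88, and without BWM 5 it was -0.25 (-1.34 to 0.83).

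**Figure D3:**
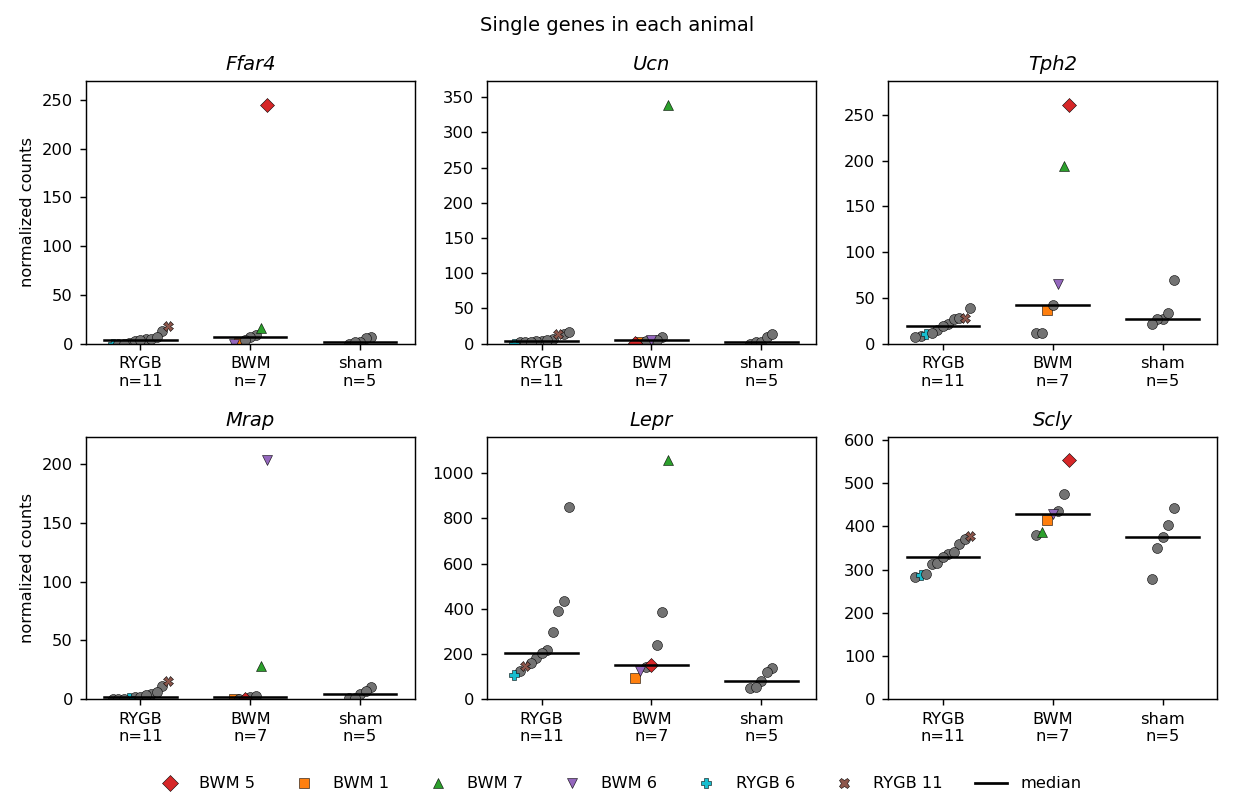
Normalized counts of single genes in each RYGB-treated (n = 11), BWM (n = 7) and sham (n = 5) animal. Points are animals, coloured symbols mark the animals named in the key, and lines are medians. High BWM values came from single animals: BWM 5 for Ffar4 (245), BWM 7 for Ucn (339) and BWM 6 for Mrap (203).

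Feeding-stimulating peptides overlapped between the groups, as did all but 1 of the 19923 genes tested. Of 11 genes tested, 0 had an unadjusted p under 0.05, against 5.23% of all genes tested. The fold change was above 0 in 6 of the 11. The median log2 fold change was 0.02, against -0.03 over all genes tested. Without BWM 5 the median was 0.10. Agrp, the antagonist of melanocortin receptors, ranged from 7.79 to 582 (median 46.6) after RYGB and from 17.2 to 487 (median 22.8) in BWM animals. The high animals were RYGB 9, BWM 6 and RYGB 1, so both groups spanned the same range. Its log2 fold change was 0.29 (-1.56 to 2.14, edgeR adjusted p = 0.968).

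Npy, the main partner of Agrp in the same neurons, ranged from 199 to 830 (median 388) after RYGB and from 157 to 1831 (median 436) in BWM animals, a log2 fold change of -0.60 (-1.58 to 0.38, edgeR adjusted p = 0.898). Pmch, melanin-concentrating hormone, ranged from 3354 to 74673 (median 20229) after RYGB and from 96.8 to 51602 (median 32541) in BWM animals. Its lowest value was that of BWM 1, and the log2 fold change was -0.03 (-1.47 to 1.41). Hcrt ranged from 151 to 7073 (median 2775) and from 1.92 to 6539 (median 2368), with a log2 fold change of -0.23 (-1.85 to 1.39).

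Feeding-reducing peptides were likewise spread within groups. Of 17 tested, only Pomc had an unadjusted p under 0.05 (5.88%, against 5.23% of all genes tested), and the median log2 fold change was -0.03 with and without BWM 5. Pomc, the precursor of alpha-MSH and of corticotropin, ranged from 49.4 to 31077 (median 895) after RYGB and from 99.6 to 73778 (median 2472) in BWM animals. BWM 7 (73778), BWM 6 (63698) and BWM 5 (35880) were above every RYGB-treated animal, of which RYGB 3 was highest, and the other 4 BWM animals were at 99.6 to 2472. The log2 fold change was -2.49 (-4.94 to -0.03, edgeR adjusted p = 0.88), and without BWM 5 -2.36 (-4.96 to 0.24). Pomc is also the main product of the intermediate pituitary. Pax7, a transcription factor of that lobe, was at 81.5 in BWM 7, 57.8 in BWM 6 and 45.7 in RYGB 3 and at 23.3 or less in the others, including 6.53 in BWM 5, and the part of pituitary tissue in Pomc was not tested.

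Cartpt, the CART precursor, ranged from 700 to 7074 (median 2926) after RYGB and from 2667 to 7882 (median 3368) in BWM animals, a log2 fold change of -0.23 (-0.96 to 0.51). Crh, corticotropin-releasing hormone of the stress axis, had -0.36 (-0.94 to 0.22), and Trh, thyrotropin-releasing hormone, 0.47 (-0.56 to 1.49). Oxt, oxytocin, ranged from 1671 to 44419 (median 13868) after RYGB and from 17.2 to 26237 (median 6617) in BWM animals. Avp, vasopressin, ranged from 498 to 82168 (median 15692) and from 15.3 to 22211 (median 7630), a log2 fold change of 1.45 (-0.55 to 3.45, edgeR adjusted p = 0.891). The lowest value of both was in BWM 1 and the highest in an RYGB-treated animal with few long transcripts, RYGB 11.

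**Figure D4:**
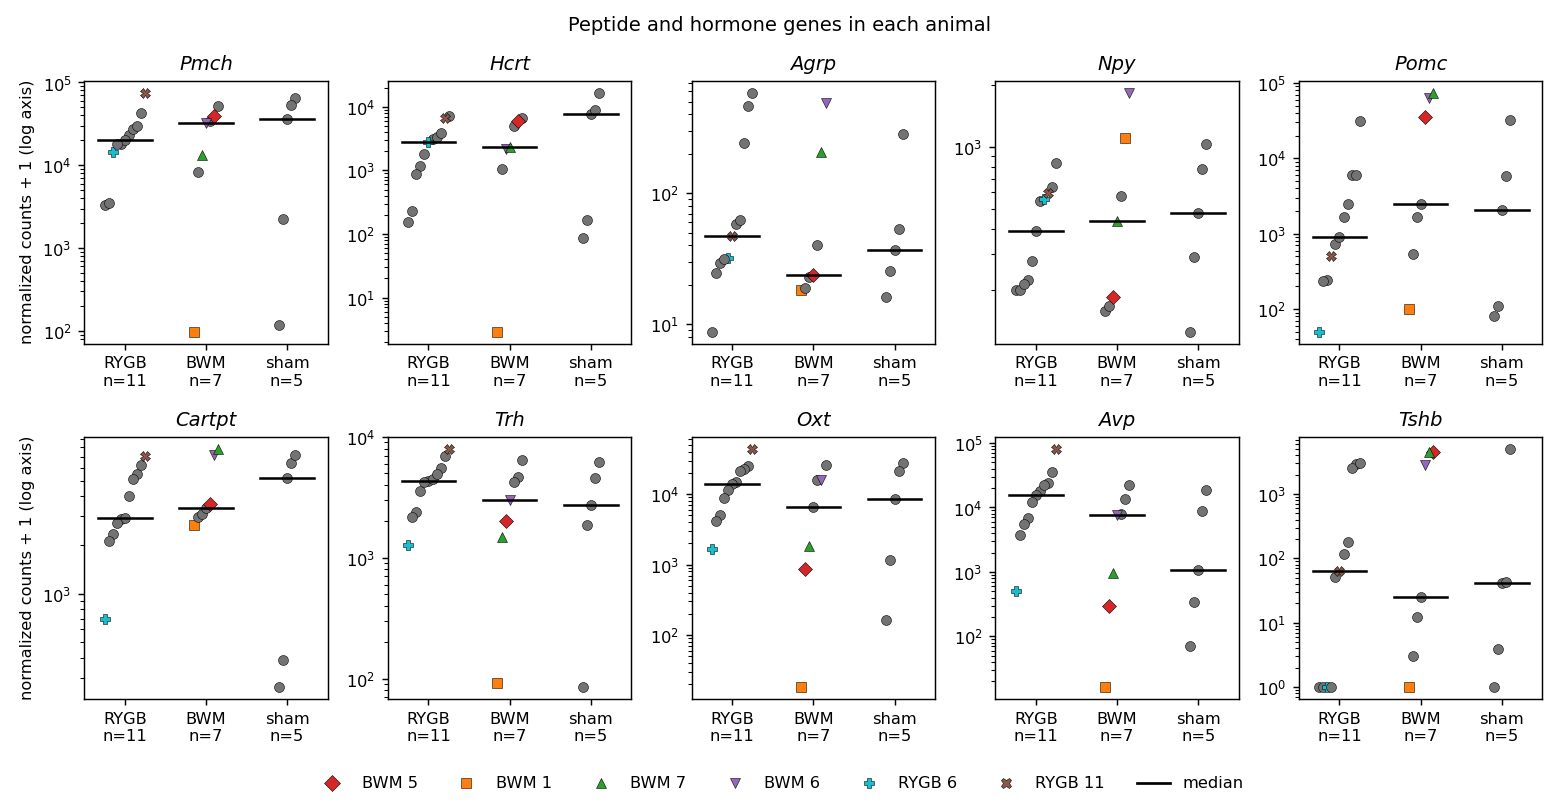
Peptide and hormone genes in each animal, as normalized counts + 1 on a log axis, for RYGB-treated, BWM and sham animals. Points are animals, coloured symbols mark the animals named in the key, and lines are medians. The groups overlap in all 10 panels, as in all but 1 of the 19923 genes tested. Pomc is highest in BWM 7 (73778), and Avp and Oxt are lowest in BWM 1 (15.3 and 17.2).

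Receptors of peripheral energy signals gave 1 of 20 genes with an unadjusted p under 0.05, a share close to the 5.23% of all genes tested. It was Ghsr, which encodes the ghrelin receptor. Genes named from here on for such a p were chosen after their values were seen. Ghsr ranged from 41.9 to 415 (median 124) after RYGB and from 11.5 to 168 (median 84.8) in BWM animals. RYGB 9, 1, 10 and 5 were above every BWM animal and the others overlapped. The log2 fold change was 1.21 (0.22 to 2.19, edgeR adjusted p = 0.88), 1.23 without BWM 5 and 1.08 without BWM 1, BWM 5 and RYGB 6. Without BWM 5 Prlr, the prolactin receptor, joined it (log2 fold change 1.07, 0.10 to 2.03, edgeR adjusted p = 0.947). The median over the 20 was 0.10, and Insr, the insulin receptor, had 0.36 (-0.24 to 0.97).

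Receptors of central feeding peptides had a median log2 fold change of 0.27 over 25 genes, 20 of them above 0, where 8876 of all 19923 genes tested were. With an unadjusted p under 0.05 stood Cnr1, Npy4r, Ntrk2 and Galr1 (16% against 5.23% of all genes tested), and without BWM 5 Cnr1 and Galr1 (8% against 3.74%). Cnr1, the cannabinoid receptor of neurons, ranged from 1265 to 3806 (median 2611) after RYGB and from 1330 to 2271 (median 1662) in BWM animals. RYGB 11 was the lowest of all, and 8 RYGB-treated animals were above every BWM animal. The log2 fold change was 0.68 (0.29 to 1.07, edgeR adjusted p = 0.88).

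Galr1, a galanin receptor, ranged from 19.3 to 170 (median 94.1) after RYGB and from 5.75 to 79.8 (median 32.6) in BWM animals, a log2 fold change of 1.29 (0.17 to 2.42, edgeR adjusted p = 0.88). Sham animals reached 46.4. Of the melanocortin receptors, Mc4r ranged from 49.4 to 204 (median 115) and from 47.2 to 372 (median 100.5), with a log2 fold change of -0.17 (-0.96 to 0.61) that turned to 0.32 (-0.37 to 1.02) without BWM 1, the highest animal. Mc3r had 0.83 (-0.36 to 2.02).

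The serotonin receptors depended on BWM 1. Of 12 tested, Htr1a had an unadjusted p under 0.05 towards higher and Htr1d towards lower levels after RYGB (16.7% against 5.23% of all genes tested). Htr6 joined Htr1d without BWM 5 (25% against 3.74%). Htr1d and Htr6 were at 452 and 1574 in BWM 1, against at most 70.6 and 237 in the other BWM animals. Leaving out BWM 1 moved the log2 fold change of Htr1d from -1.34 to -0.08 and that of Htr6 from -1.16 to 0.41. BWM 1 was also the animal with the high striatal markers. Without BWM 1, BWM 5 and RYGB 6 the median of the list was 0.61, against 0.11 with 18 libraries, 11 of 12 were above 0, and Htr1a, Htr5a, Htr2a and Htr4 had an unadjusted p under 0.05, all higher after RYGB (33.3% against 7.39% of all genes tested), with an edgeR adjusted p of 0.655 for Htr5a, Htr2a and Htr4. Htr1a, an inhibitory receptor, kept 0.82 without BWM 1. It ranged from 37.7 to 155 (median 82.9) after RYGB and from 23.9 to 111 (median 50.8) in BWM animals, and the edgeR adjusted p was 0.88 with all 18 libraries. Glra3, a glycine receptor subunit that the study named, ranged from 10.7 to 123 (median 58.6) and from 7.61 to 67.6 (median 25.9), with a log2 fold change of 1.08 (0.12 to 2.04, edgeR adjusted p = 0.88).

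Signalling lists had medians from -0.10 to 0.18, against -0.03 (quartiles -0.17 and 0.11) over all genes tested. Of all 19923 genes tested, 8876 were above 0 and 5.23% had an unadjusted p under 0.05. Of 23 genes of leptin and JAK-STAT signalling the median log2 fold change was -0.10. Jak1, a kinase of cytokine receptors, had 0.17 (0.00027 to 0.35) and Stat4, a transcription factor of immune cells, -1.09 (-1.80 to -0.37), the only ones of the list under an unadjusted p of 0.05, and both had an edgeR adjusted p of 0.88. Socs3, the feedback inhibitor of the leptin receptor, had -0.25 (-1.14 to 0.65). Of 23 genes of insulin and PI3K-Akt signalling 19 were above 0 (median 0.18), and those with an unadjusted p under 0.05 were Rictor, a subunit of mTORC2 (0.26, 0.03 to 0.48), and Gsk3b, a kinase (0.20, 0.0036 to 0.40). Of 24 genes of cholesterol and fatty acid synthesis 21 were above 0 (median 0.15). Without BWM 1, BWM 5 and RYGB 6 the count above 0 in that list was 15 of 24 and the median 0.06. AMPK subunits and regulators (10 genes, median 0.02) and the circadian clock (17 genes, median -0.0012) had medians close to that of all genes.

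Immediate early genes, which neurons switch on within minutes of activity, were all below 0 (16 of 16) with a median log2 fold change of -0.60. Over all genes tested, 8876 of 19923 were above 0. Nr4a1 and Btg2 had an unadjusted p under 0.05 (12.5% against 5.23% of all genes tested). Without BWM 5 the median was -0.29, 14 of 16 were below 0 and 0 had such a p, against 3.74% of all genes tested. Without BWM 1, BWM 5 and RYGB 6 the median was -0.47, 15 of 16 were below 0, and Nr4a2, Nr4a1 and Btg2 had such a p (18.8% against 7.39% of all genes tested). The summed level was highest in BWM 5 (1360 CPM), RYGB 6 (1230 CPM) and BWM 7 (1040 CPM), against a median of 390 CPM after RYGB and 608 CPM in BWM animals. Fos, the most used marker of activity, ranged from 424 to 1788 (median 885) and from 786 to 2376 (median 900), with a log2 fold change of -0.37 (-0.96 to 0.23). Inflammation genes had a median of -0.28 over 18, 17 of them below 0. Lcn2, an acute-phase protein, was the only one with an unadjusted p under 0.05 (5.56% against 5.23% of all genes tested). Its log2 fold change was -1.14 (-1.96 to -0.33, edgeR adjusted p = 0.88). The summed level of this list was highest in BWM 7 (389 CPM) and RYGB 3 (355 CPM), the animals with the most meningeal markers.

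Transcript length moved with the direction of the fold changes. Genes with an unadjusted p under 0.05 that were higher after RYGB had a median of 4720 exonic bases and those that were lower 2497, against 2724 over all genes tested. The median log2 fold change was 0.05 for genes with over 6000 bases and -0.08 for genes with under 2000. Without BWM 1, BWM 5, RYGB 6 and RYGB 11 it was 0.16 and -0.15. The PI3K-Akt list had a median of 6127 bases. At the other end, 85 of 86 cytosolic ribosomal protein genes (609 bases) were below 0 with a median of -0.19, and 71 of 78 respiratory chain subunits (743 bases) were below 0 with a median of -0.12. Over all genes tested, 8876 of 19923 were above 0 and the median was -0.03. The interval lay within -1 and 1 for 84 of the ribosomal genes and all 78 respiratory chain genes, and for 79.3% of all genes tested. RYGB 11, BWM 2 and BWM 6 had the lowest levels of long against short transcripts (-0.24, 0.10 and 0.26 on the log2 scale), and the part of length in any list was not tested.

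**Figure D5:**
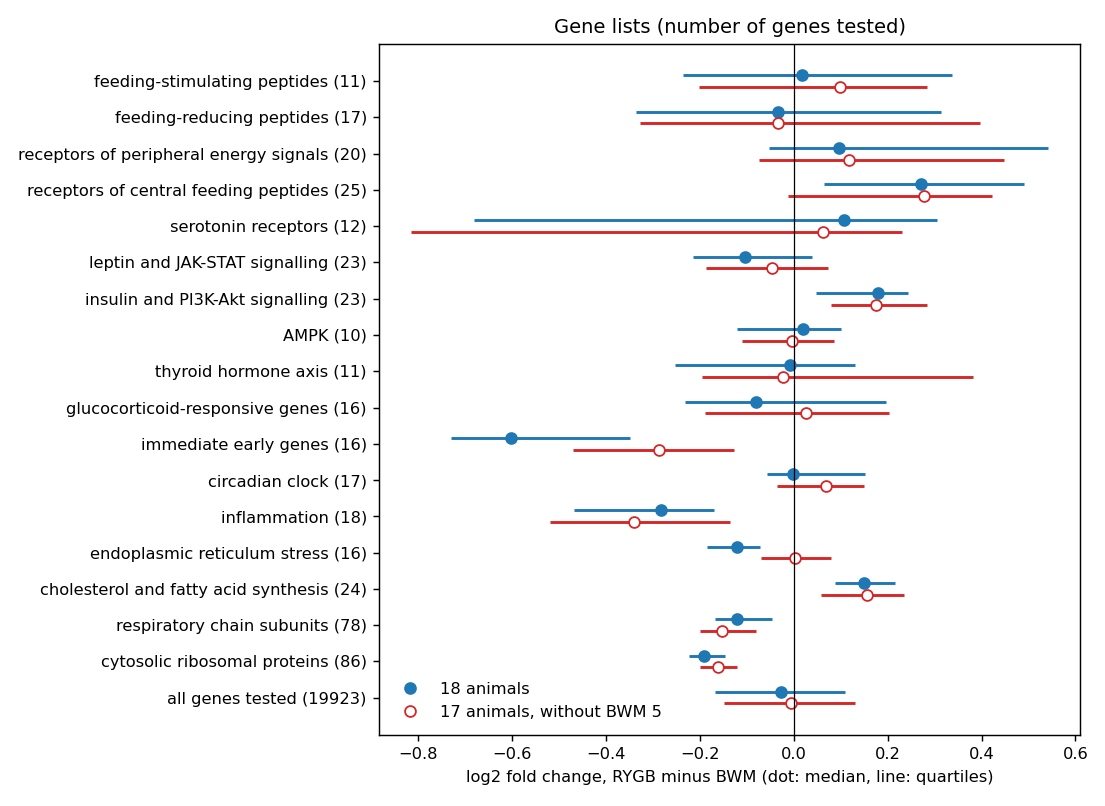
Log2 fold changes (RYGB minus BWM) of gene lists, with the number of genes tested in brackets, with 18 libraries and with 17 (without BWM 5). Points are medians and bars the quartiles of each list. Immediate early genes move from -0.60 to -0.29 without BWM 5, and the feeding peptides stay near 0.

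Markers of hypothalamic nuclei varied between animals, and the cause was not tested. Median log2 fold changes were 0.006 for the arcuate, -0.03 for the lateral, 0.30 for the suprachiasmatic and -0.26 for the mammillary list. Without BWM 5 they were 0.02, 0.10, 0.65 and -0.07 in the same order. All 6 ventromedial nucleus genes were above 0 (median log2 fold change 0.87, and 0.82 without BWM 5). Of the 6, 0 were under an unadjusted p of 0.05, against 5.23% of all genes tested. Fezf1, a transcription factor of that nucleus, ranged from 49.4 to 1235 (median 452) after RYGB and from 3.83 to 474 (median 264) in BWM animals, and Nr5a1, its defining factor SF-1, from 5.37 to 768 (median 301) and from 13.4 to 302 (median 167). BWM 1 had the lowest sum of the list (6.17 CPM), the other 6 BWM animals had 73.4 to 125 CPM and RYGB-treated animals 81.3 to 209 CPM. The paraventricular and supraoptic list had a median of 0.71 (6 of 7 above 0), lowest in BWM 1 at 25.2 CPM. Without BWM 1, BWM 5 and RYGB 6 these medians were 0.46 and 0.36. The 8 striatal markers were all below 0 with a median of -1.40 and 6 under an unadjusted p of 0.05 (75% against 5.23% of all genes tested). Without those 3 animals all 8 were above 0 with a median of 0.34. Anterior pituitary genes (7 tested) had a median of -1.47, and -0.59 without BWM 5.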

How the data were processed

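Hypothalamic RNA was sequenced as stranded poly-A libraries. The authors demultiplexed with bcl2fastq 2.20.0.422, trimmed with cutadapt (1.16 and later versions), aligned with STAR 2.7.2b to Rnor_6.0 and counted with featureCounts 1.6.4. The deposited table holds estimated counts: reads that match several places were shared out as fractions, so that 30.3% of the nonzero values are not whole, and near-identical genes may share reads. These were rounded here.

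Counts were tested with edgeR 4.0.16 in R 4.3.3 (TMM scaling, low counts removed by filterByExpr at 10 per library and 15 in total, robust quasi-likelihood fit) on 18 libraries, and on 17 without BWM 5. Regulated genes had a log2 fold change (RYGB minus BWM, given with its 95% interval) beyond 1 in either direction together with a p, adjusted by Benjamini-Hochberg, under 0.05. All adjusted p-values are from edgeR unless DESeq2 1.42.0 is named. Normalized counts are counts divided by DESeq2 size factors. Single genes were compared by a two-sided exact permutation test of the difference in means. Scripts were tested on simulated data.

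Gene lists, markers and comparisons were chosen with earlier results of these data known, the olfactory list and some alternatives after seeing the data. Genes named were those regulated, the 5 with the smallest p in each direction without BWM 5, the genes the study named, the 4 highest of each list, abundant feeding peptides and tissue markers. Alternatives were other scaling, DESeq2, no filter, no robust step, fits with more groups, a replicate block and leaving out animals. Replicate numbers are names only. Some items are not reported here. Libraries of other groups entered only the larger fits.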

Additional observations from a re-analysis of the deposited data

Results flagged for a closer look

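In the 7 BWM animals, 17 of 43 genes had 1 animal so far from the others that its gap to the nearest was over 0.568 of the range, the 95% critical value of Dixon's test. A chance rate of 1 flag in 20 groups holds for normally distributed values. Counts with rare high values are flagged more often, and 8 of the flags came from BWM 1 alone. The number of flags therefore cannot be set against that rate. The 11 RYGB-treated animals were too many for this test. BWM 5 stood out for Gh1 (1900504 normalized counts), Prl (390482), Ffar4 (245) and Nucb2, the precursor of the satiety peptide nesfatin (3552). Gh1 and Prl in BWM 5 were known before and led to the results without this animal, so these 2 are descriptions. BWM 7 stood out for Spp1 (6719), Lepr (1056) and Ucn (339). BWM 6 stood out for Mrap (203) and Cck, cholecystokinin (5230). BWM 1, the animal with striatal markers, stood out for the opioid peptide genes Penk (42743) and Pdyn (5642), for Tac1 (9915), for the serotonin receptors Htr1b (420), Htr5a (341) and Htr2a (317), for Mc4r (372) and for the glycine receptor subunit Glra4 (297). All 17 were high values and none were low ones.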

How the results depend on the processing

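The count of regulated genes by edgeR was 0 with either scaling, without the filter, without the robust step, with the replicate block and with each animal left out (range 0 to 0), for 18 and for 17 libraries. DESeq2 called 3 regulated and 5 at any fold with 18 libraries, and 1 and 1 with 17. A fit of all batch A libraries called 12 regulated and 13 at any fold, in 10 of the 12 with BWM 5 as the highest animal, and 2 and 2 without BWM 5. A fit of all libraries of both batches called 60 and 75, 50 of the 60 highest in BWM 5, and 2 and 2 without it. Leaving out BWM 1, BWM 5, RYGB 6 and RYGB 11, chosen after seeing the data, gave 5 genes at any fold.

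With the replicate block 1017 genes had an unadjusted p under 0.05 (626 with 17 libraries). In their deviations from the group means of log2 CPM, same-numbered animals correlated between -0.14 and 0.207, with 3 of 7 pairs over 0.1. By the same measure 0 of 7 BWM animals matched their own number best. Leaving out 1 animal moved the count at an unadjusted p under 0.05 between 711 and 2681 with 18 libraries: 2681 without RYGB 11, 1968 without BWM 1, 1633 without RYGB 3 and 1616 without BWM 4. With 17 it moved between 455 and 2507: 2507 without RYGB 11, 1391 without BWM 1, 1336 without BWM 4, 1294 without RYGB 3, 491 without RYGB 9 and 455 without BWM 2. Without the filter it was 2164 and 1691.

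Differences in mean normalized counts with 1 animal left out ranged from -41.8 to -0.997 for Ffar4, -54.4 to 1.91 for Ucn, -82.1 to -40.5 for Tph2, -35.2 to -1.4 for Mrap and -86.5 to 94.1 for Lepr. Ucn (1.91) and Lepr (94.1) reversed without BWM 7. Without BWM 5 and BWM 7, Ffar4 (0.945), Ucn (1.31) and Lepr (86.1) were higher after RYGB, and Tph2 (-13.7) had an exact permutation p of 0.107. In 65 of 176 named genes tested the sign differed between settings. The cause was not tested.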

Other observations

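Dopamine neuron genes formed a pattern across both groups. Slc6a3, the dopamine transporter, was at 4135 and 2479 normalized counts in RYGB 7 and RYGB 2 and at 2063, 1414, 703 and 226 in BWM 4, 3, 5 and 7, and at 79.0 or less in the other 12 animals. Th, tyrosine hydroxylase, was highest in 4 of these 6, with 8576 in RYGB 7, 5293 in RYGB 2, 4438 in BWM 3 and 4232 in BWM 4. The 5 sham animals had Slc6a3 at 4.19 or less. These genes were chosen after their values were seen.

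The sham libraries of batch A varied as well. Sham 1 had 1140 CPM of thalamus and habenula markers, where no RYGB-treated animal passed 194 CPM, and sham 2 had 1800 CPM of cortex markers. In sham 2 the paraventricular and supraoptic markers summed to 17.6 CPM, below the 25.2 CPM of BWM 1.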
